A study of Mus musculus with 72 samples.

Results

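A set of 10 genes of the muscle mass and autophagy machinery were followed through soleus and tibialis anterior of mice with and without Bmal1 in muscle. They were chosen by symbol, as the probe sets annotated to Mstn, Foxo1, Foxo3, Fbxo32, Trim63, Fbxo30, Map1lc3a, Gabarapl1, Bnip3 and Sqstm1. All 10 were found, each with 1 probe set, among the 20239 named genes on the arrays.

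The study compared adult male mice of the C57BL/6 background, 5 months old, in which floxed Bmal1 was deleted by a Cre recombinase transgene under the Mlc1f promoter (mKO), with littermates without Cre (Ctrl). All mice were kept on a cycle of 12 h of light and 12 h of darkness, with lights on at Zeitgeber time (ZT) 0 and off at ZT12, and with food and water always available. Muscles were taken at ZT0, ZT4, ZT8, ZT12, ZT16 and ZT20, from 3 animals of each genotype at each time. Each of the 36 animals gave 1 soleus (SOL, a slow muscle) and 1 tibialis anterior (TA, a fast muscle), so the 72 arrays fall into 24 groups of 3. Because Ctrl animals carry no Cre, the loss of Bmal1 and the presence of Cre cannot be told apart in these groups. The Mlc1f promoter drives Cre in skeletal muscle fibres, and whole muscle also holds other cells that keep Bmal1. In whole muscle, fewer cells of a type and less RNA per cell cannot be told apart.

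Myostatin, the product of Mstn, is a secreted member of the TGF-beta family that restrains muscle growth. It binds type II activin receptors, which engage a type I receptor such as ALK4 (Acvr1b) and lead to phosphorylation of Smad2 and Smad3. FoxO transcription factors are held out of the nucleus by Akt, and when active they raise muscle ubiquitin ligases such as atrogin-1 (Fbxo32) and MuRF1 (Trim63). FoxO factors also act on autophagy genes, among them the ATG8 proteins of the forming autophagosome (Map1lc3a, Gabarapl1), the mitochondrial receptor Bnip3 and the cargo receptor p62 (Sqstm1).

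The promoters of these genes are the stretches that clock and FoxO proteins could bind, and 8 of the 10 genes had one in the RefSeq table of assembly GRCm38.p6. Those of Mstn and Trim63 are shown because Mstn was lower in mKO in both muscles and Trim63 changed at a single time in TA. Each line gives the 250 bases before the gene's start, 5′ to 3′ on the gene's own strand. Capitals mark a FoxO element, GTAAACA or its reverse complement.
Mstn (chr1:53061390-53061639, + strand): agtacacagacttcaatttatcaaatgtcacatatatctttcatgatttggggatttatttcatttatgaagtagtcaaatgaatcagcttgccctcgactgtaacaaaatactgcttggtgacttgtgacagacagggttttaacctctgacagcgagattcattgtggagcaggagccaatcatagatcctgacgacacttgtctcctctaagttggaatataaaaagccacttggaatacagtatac
Trim63 (chr4:134314870-134315119, + strand): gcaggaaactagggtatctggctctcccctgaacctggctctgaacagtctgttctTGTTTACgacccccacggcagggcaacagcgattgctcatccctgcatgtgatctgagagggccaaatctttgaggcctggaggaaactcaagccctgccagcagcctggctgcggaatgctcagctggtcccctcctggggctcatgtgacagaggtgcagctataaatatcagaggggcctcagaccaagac

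Both strands of 300 bases, 250 before and 50 after the start, were searched for 4 motifs in all 32851 RefSeq promoters. The FoxO element GTAAACA was in 3.65% of promoters, and among the 8 matched genes it was in that of Trim63, 194 bases upstream of the start. The canonical E-box CACGTG was in 7.15% of promoters and in that of Bnip3, 108 bases upstream. The ROR element core TAGGTCA (2.61% of promoters) and the D-box TTANGTAA (2.32%) were in none of the 8. No match overlapped another, and a match describes the letters in this window only.

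The deposited log2 signals had array medians from 6.69 to 6.85, and animals of one group differed by a median SD of 0.117 (SOL) and 0.121 (TA). The muscles matched their labels. The mean of 8 slow fibre markers (Myh7, Tnni1 and others) had medians of 13.2 in SOL of Ctrl and 7.50 in TA of Ctrl, and that of 10 fast fibre markers (Myh4, Actn3 and others) had medians of 12.4 and 13.5. One array, TA of Ctrl at ZT0 replicate A, held liver transcripts, with a mean of 10.9 over 10 liver markers against a Ctrl median of 5.69. No call on the 10 genes in TA, or between muscles, changed without that animal. A second array, SOL of Ctrl at ZT4 replicate C, had a liver marker mean of 7.52 against a SOL Ctrl median of 5.77, and without that animal the rhythm call of Foxo3 in SOL of Ctrl was lost. Arntl, the symbol of the targeted gene, did not differ in its mean over the 6 times (limma adjusted p 0.508 for SOL and 0.465 for TA), while the amplitude of its daily rhythm fell from 1.34 to 0.59 in SOL and from 1.09 to 0.33 in TA (adjusted p of the difference 1.33e-05 and 1.70e-05). Of 53 measured markers of 9 other cell types, from endothelium to satellite cells, 2 were higher and 2 lower in mKO in SOL, and 1 higher and 4 lower in TA. Of all genes, 3.56% were higher and 3.54% lower in SOL, and 6.76% and 8.06% in TA. The position of the Arntl probes against the deleted part is not known here, so this gene does not check the deletion. The animals' identification numbers fall into series named BM3 (23 animals), BM2* (7) and BM2 (6), whose meaning the labels do not give. All animals of ZT0 and ZT4 were of BM3 and none of ZT12 was. At ZT20 the 3 Ctrl were of BM3 and the 3 mKO of BM2, so series and genotype cannot be told apart there. At ZT16 the 3 mKO were of BM3, beside 1 Ctrl of BM3 and 2 of BM2*. Only that 1 Ctrl animal tells series and genotype apart at ZT16.

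A genotype effect is the difference of mKO from Ctrl in 1 muscle, averaged over the 6 times. An adjusted p under 0.05, from limma over all named genes, is called a change. In SOL 1 of the 10 genes changed, Mstn, which fell, where 7.1% of all genes changed and 3.54% fell. In TA 2 of the 10 changed and both fell, Mstn and Map1lc3a, where 14.8% of all genes changed and 8.06% fell. None of the 10 rose over the 6 times, where 3.56% of all genes rose in SOL and 6.76% in TA. The median effect over the 10 was 0.01 in SOL and -0.05 in TA, on the log2 scale, beside 0.00 and 0.02 over all genes.

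**Figure D1:**
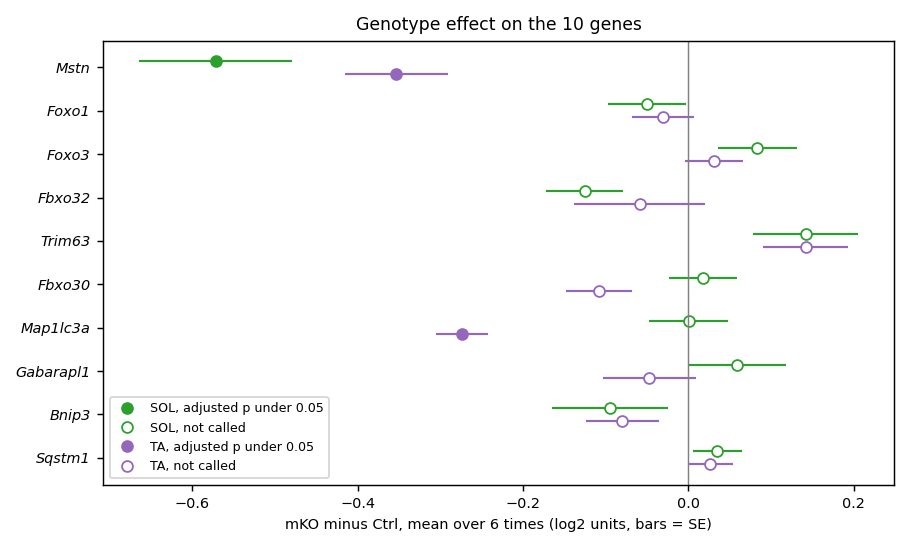
Difference between mKO and Ctrl (log2 units, mean over 6 times; bars are standard errors, 18 animals a genotype) for each gene in SOL (green) and TA (purple). Filled points passed an adjusted p of 0.05 in limma. Mstn is filled in both muscles, at -0.57 and -0.35, Map1lc3a is filled in TA alone at -0.27, and the other points lie within 0.15 of 0.

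Mstn (Entrez 17700), the ligand, was lower in mKO in both muscles. In SOL of Ctrl its log2 signal ran from 5.05 to 6.50 with a median of 6.05 over 18 animals, and in SOL of mKO from 4.73 to 5.80 with a median of 5.41. In TA of Ctrl it ran from 8.79 to 9.74 with a median of 9.34, and in TA of mKO from 8.23 to 9.32 with a median of 8.94. The genotypes overlapped in both muscles with all times pooled. On 36 of 36 SOL arrays Mstn lay below the median signal of its array, and on 0 of 36 TA arrays. With no detection calls, it is not known whether Mstn stood above background in SOL, where differences of signals can understate those of RNA, so no fold is given for SOL. The difference was -0.57 ± 0.09 in SOL (SE, 18 against 18 animals, adjusted p = 5.19e-05, limma) and -0.35 ± 0.06 in TA (1.28-fold lower, adjusted p = 0.000106). The group mean of mKO was below that of Ctrl at 6 of 6 times in each muscle.

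The gap between genotypes in SOL was widest in the dark and at lights on. At ZT16 the 3 Ctrl animals had 6.27, 6.04 and 6.23 and the 3 mKO animals 5.67, 5.44 and 4.73, and at ZT20 Ctrl had 6.24, 6.10 and 6.50 and mKO 4.86, 5.60 and 5.62. At ZT0 Ctrl had 6.11, 5.99 and 6.13 and mKO 5.21, 5.25 and 5.57. At these 3 times every mKO animal lay below every Ctrl animal, as from 4.88% to 10.5% of all genes did at single times in SOL. At ZT4, ZT8 and ZT12 the genotypes overlapped, with Ctrl means of 5.56, 5.49 and 5.97 and mKO means of 5.35, 5.28 and 5.51. The difference passed the test at ZT16 (-0.90 ± 0.23, adjusted p = 0.0438, limma) and at ZT20 (-0.92 ± 0.23, adjusted p = 0.0363), where 0.455% and 0.662% of all genes fell. At ZT20 Ctrl animals were of BM3 and mKO animals of BM2, so series and genotype cannot be told apart there in either muscle. The ZT16 comparison, in either muscle, sets 1 Ctrl animal of BM3 and 2 of BM2* against 3 mKO animals of BM3. At ZT0, where 0.38% of all genes fell, the difference was -0.73 ± 0.23 and did not pass (adjusted p = 0.224).

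In TA every mKO animal lay below every Ctrl animal at ZT12, ZT16 and ZT20, as from 3.83% to 9.19% of all genes did at single times in TA. At ZT16 Ctrl had 9.44, 9.74 and 9.42 and mKO 8.87, 9.06 and 8.87, a difference of -0.60 ± 0.15 that passed the test (adjusted p = 0.0297, limma, where 0.968% of all genes fell). At ZT0, ZT4 and ZT8 the genotypes overlapped. The Mstn difference between the muscles' effects was 0.22 ± 0.12 and did not pass (adjusted p = 0.512), with the SOL effect open to the limit of low signal given above. Within series the direction was the same, over fewer times. Genotype effects within series, here and below, average only the times at which the series held both genotypes. These were ZT0, ZT4, ZT8 and ZT16 in BM3, and ZT8 and ZT12 in BM2 with BM2*, so neither covers ZT20. At ZT16 BM3 held 1 Ctrl animal. The Mstn effect was -0.49 in SOL and -0.31 in TA within BM3 animals (adjusted p = 0.014 and 0.0229), and -0.51 and -0.21 within the animals of BM2 and BM2* (adjusted p = 0.69 and 0.769).

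Mstn was the gene with the largest distance between muscles of the 10, and the fibre markers differed between the muscles as well. Its level was 3.36 ± 0.09 higher in TA than in SOL of the same Ctrl animals (adjusted p = 2.14e-24, limma) and 3.58 ± 0.09 higher in mKO (adjusted p = 3.55e-25), higher in 18 of 18 animals of each genotype. In SOL the mean over the 10 fast fibre markers ran from 11.6 to 12.6 in Ctrl (median 12.4) and from 11.4 to 12.6 in mKO (median 12.2), with 1 marker higher and 2 lower in mKO, and 4 of the 8 slow fibre markers were lower in mKO as well. In TA the medians of the fast list were 13.5 in both genotypes, with 1 of 10 markers higher and none lower. The slow list in TA had medians of 7.50 in Ctrl and 7.66 in mKO, with 1 of 8 higher, Myl3 (0.44), and none lower. The part of the fibre markers in the Mstn differences was not tested.

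The rest of the myostatin pathway was described by lists of its genes. Counts in these and the later lists stand beside the shares of all genes. Those were 3.56% risen and 3.54% fallen in SOL, and 6.76% and 8.06% in TA. No list was tested against these shares. Of 7 ligands, 1 rose and 1 fell in each muscle, Mstn being the one that fell. Tgfb3, a TGF-beta ligand, rose by 0.12 ± 0.04 in SOL (adjusted p = 0.0458, limma) and by 0.59 ± 0.04 in TA (adjusted p = 1.60e-11), and these effects differed (adjusted p of the interaction 6.12e-06). Of 11 proteins that inhibit or activate the ligands, 1 rose and 1 fell in SOL, and 2 rose and 2 fell in TA. Fst, follistatin, which binds and blocks myostatin and activins, fell in SOL (-0.20 ± 0.04) and had -0.06 ± 0.04 in TA. Ltbp3, which holds latent ligands in the matrix, rose in both (0.25 and 0.13). Furin, a protease that cuts the precursors, rose in TA (0.21).

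Of 7 receptors of the activin and TGF-beta type, 3 fell in SOL and 4 fell in TA, and none rose. Acvr1b, a type I receptor for myostatin and activins, fell by 0.34 ± 0.05 in SOL and by 0.70 ± 0.05 in TA, and the effects differed (adjusted p of the interaction 0.00327, limma). Tgfbr2 fell by 0.25 and 0.29 and Tgfbr1 by 0.14 and 0.14, in SOL and TA. The type II receptors that bind myostatin did not pass: Acvr2a had -0.04 and 0.07 and Acvr2b 0.00 and 0.00. The median over the 7 was -0.14 in each muscle, beside 0.00 and 0.02 over all genes. Some markers of other cells had medians below 0 too. The 9 fibroblast and tendon markers had median effects of -0.10 in SOL (1 called higher and 1 lower) and -0.14 in TA (1 lower), and their mean level ran from 9.03 to 9.68 in Ctrl and from 8.96 to 9.49 in mKO in SOL, and from 8.60 to 9.32 and from 8.64 to 9.19 in TA. The 6 adipocyte markers had median effects of -0.10 in each muscle (none called in SOL, 1 lower in TA), and their mean level ran from 7.27 to 8.59 in Ctrl and from 7.29 to 8.69 in mKO in SOL, and from 6.99 to 7.45 and from 6.91 to 7.27 in TA. Their part in the receptors' difference was not tested.

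Of 10 Smad proteins and their regulators, 2 fell in SOL and 3 in TA, and none rose. Zfyve9, which presents Smad2 and Smad3 to the receptor, fell by 0.34 in SOL and 0.39 in TA, Smad2 fell by 0.13 in SOL, and Smad4, the common partner, fell by 0.13 in TA. Of 15 genes of the related BMP arm, 1 rose and 1 fell in SOL, and 1 rose and 3 fell in TA. Smad1 rose (0.16 and 0.19) and the receptor Bmpr1a fell (0.17 and 0.20), while Bmpr1b fell by 0.57 ± 0.07 in TA and had -0.11 ± 0.06 in SOL (adjusted p of the interaction 0.0108).

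Foxo1 (Entrez 56458) and Foxo3 (Entrez 56484), the transcription factors, did not differ between genotypes beyond the spread of the animals. Foxo1 had -0.05 ± 0.05 in SOL (adjusted p = 0.704, limma) and -0.03 ± 0.04 in TA (adjusted p = 0.643). In SOL its medians were 8.90 in Ctrl, with a range from 8.62 to 9.65, and 8.91 in mKO, from 8.56 to 9.53, and in TA they were 8.77 and 8.71, so the genotypes overlapped almost fully. Foxo3 had 0.08 ± 0.05 in SOL and 0.03 ± 0.03 in TA (adjusted p = 0.417 and 0.612). Their medians in SOL were 8.14 in Ctrl and 8.24 in mKO, and in TA 7.99 in each genotype.

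Over all animals, Foxo1 followed the time of day in both muscles and both genotypes. Rhythm was tested as a cosine of 24 h, and its amplitude, in log2 units, runs from the mean to the peak. Foxo1 was rhythmic in SOL of Ctrl (amplitude 0.33, peak at ZT15.8, adjusted p = 0.000546, limma), SOL of mKO (0.30, ZT16.1, adjusted p = 0.00221), TA of Ctrl (0.25, ZT16.4, adjusted p = 0.00284) and TA of mKO (0.20, ZT16.7, adjusted p = 0.0338). In SOL of Ctrl the 3 animals of ZT16 had 9.65, 9.26 and 9.65 and those of ZT4 had 8.78, 8.70 and 8.62. In TA of Ctrl the values were 9.15, 9.08 and 9.24 at ZT16 and 8.64, 8.59 and 8.43 at ZT4. These were the times of the highest and lowest group means, and at ZT16 every animal lay above every animal of ZT4, in each muscle of Ctrl. The share of all genes so separated was not counted. The difference in Foxo1 rhythm between genotypes did not pass in either muscle (adjusted p = 0.999 in both). The call in TA of mKO was lost when any 1 of 7 animals was left out, and on the 18 arrays of that set alone (adjusted p = 0.0599). BM3 held no animal of ZT12 and no mKO animal of ZT20, so its fits of the genotypes rest on unlike times. Within BM3 animals the Foxo1 rhythm passed in both muscles of mKO (adjusted p = 0.00385 in SOL, 0.0129 in TA). In Ctrl it had amplitudes of 0.30 in SOL and 0.20 in TA and did not pass (0.0709 and 0.249).

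Foxo3 was rhythmic in SOL of Ctrl alone (amplitude 0.19, peak at ZT15.6, adjusted p = 0.04, limma), a call lost when any 1 of 12 animals was left out, within BM3 animals (adjusted p = 0.29), with series as a covariate (0.069) and on those 18 arrays alone (0.129). In the other 3 sets its amplitudes were 0.10 in SOL of mKO, 0.09 in TA of Ctrl and 0.11 in TA of mKO. Over the 36 arrays of each muscle, which share animals and times, Foxo1 and Foxo3 had a Pearson r of 0.61 in SOL and 0.64 in TA. Foxo1 and its known target Fbxo32 had r of -0.42 and -0.60 over the same arrays. The fitted peaks of Foxo1 lay in the dark phase and those of Fbxo32, given below, in the light phase.

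Among 12 measured genes of the FoxO family and its upstream kinases, 2 rose and 3 fell in SOL, and 1 rose and 5 fell in TA. Akt1, a kinase that inhibits FoxO, fell by 0.24 and 0.41, in SOL and TA, and Akt2, its relative, rose by 0.20 in TA. Sgk1, a kinase with the same kind of FoxO sites, fell by 0.45 ± 0.05 in SOL and by 0.29 ± 0.05 in TA. Prkaa2, a catalytic subunit of AMPK, fell by 0.19 in both muscles. Foxo4 fell by 0.21 in TA. In SOL Pdpk1 rose by 0.14 and Prkaa1 by 0.09. Of 15 further genes known as FoxO targets, 4 rose and none fell in SOL, and 2 rose and 1 fell in TA. Sesn3, a sestrin, rose by 0.25 and 0.21, Pdk4, a kinase that shuts off pyruvate dehydrogenase, rose by 0.32 ± 0.07 in SOL and had 0.25 ± 0.10 in TA, Insr rose by 0.12 in SOL, and Sesn1 rose by 0.20 in TA. Bcl6, a repressor, fell by 0.27 in TA.

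**Figure D2:**
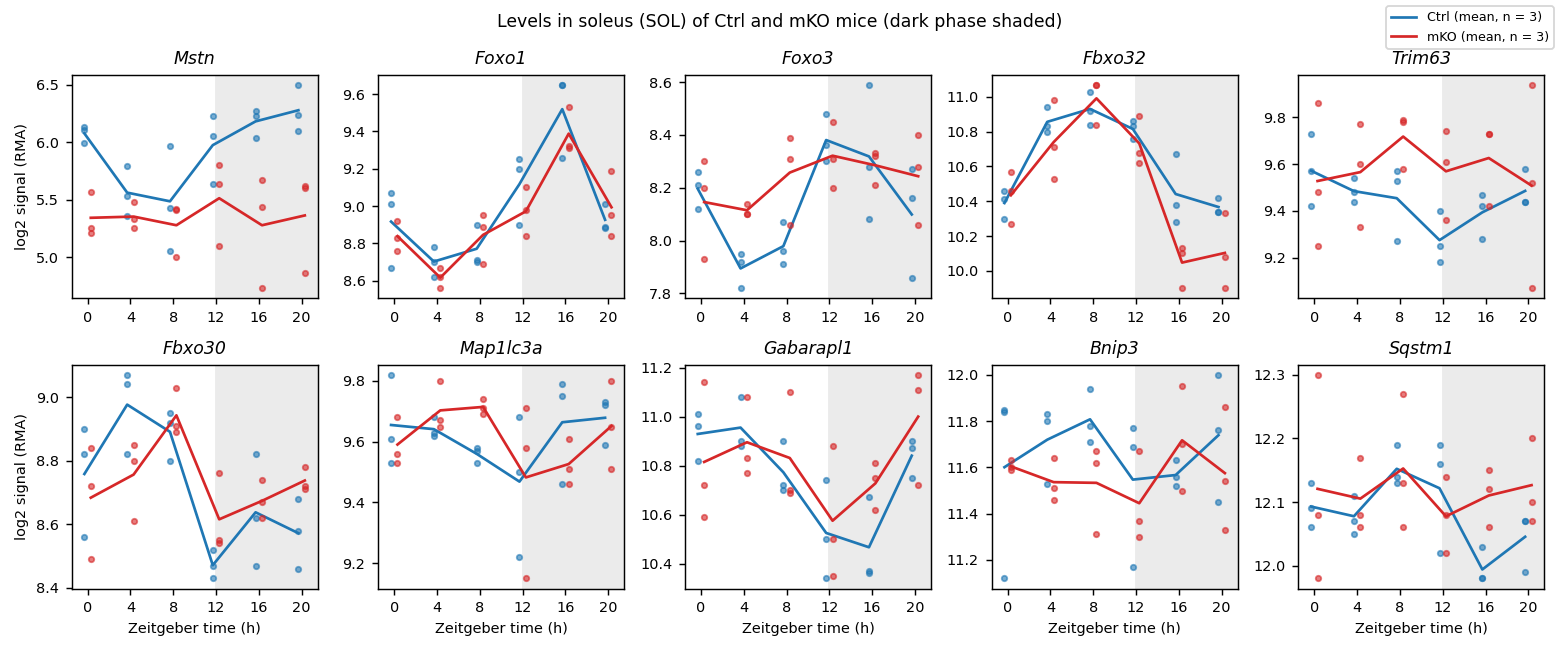
Log2 signal of each gene in SOL by Zeitgeber time (h); points are animals, lines join the means of 3 animals for Ctrl (blue) and mKO (red), and the dark phase is shaded. The y axes differ between panels. Mstn of Ctrl rose from a mean of 5.49 at ZT8 to 6.28 at ZT20 while the means of mKO stayed between 5.28 and 5.51, and Fbxo32 was high at ZT8 in both genotypes.

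Mstn was rhythmic in SOL of Ctrl and no rhythm passed the test in SOL of mKO. The amplitude was 0.41 in Ctrl with a peak at ZT18.6 (adjusted p = 0.00628, limma) and 0.03 in mKO (adjusted p = 0.973). The mKO signal is the lowest of the 4 sets and may lie at background, so its small amplitude does not show that the rhythm was absent. Within BM3 animals the Ctrl amplitude was 0.52 (adjusted p = 0.00296), and as any difference among the 6 times it did not pass (adjusted p = 0.0992). The difference in rhythm between genotypes did not pass after adjustment (unadjusted p = 0.00759, adjusted p = 0.788). In TA the amplitudes of Mstn were 0.19 in Ctrl and 0.22 in mKO, and neither passed (adjusted p = 0.296 and 0.178). Counted over the 10 genes, 6 were rhythmic in SOL of Ctrl, 2 in SOL of mKO, 2 in TA of Ctrl and 3 in TA of mKO, beside 6.05%, 5.68%, 2.7% and 1.76% of all genes. None of the 10 had a called difference in rhythm between genotypes in either muscle (0.0395% and 0.104% of all genes did). The counts of rhythmic genes in Ctrl and mKO are therefore not shown to differ. In each muscle 2 were under an unadjusted p of 0.05, Mstn and Fbxo32 in SOL and Fbxo32 and Trim63 in TA. By p they ranked 192 and 984 of 20239 genes in SOL, and 110 and 26 in TA. The share of all genes under that unadjusted p was not counted.

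Fbxo32 (Entrez 67731), atrogin-1, a muscle ubiquitin ligase subunit that rises in many forms of atrophy, had no called difference in its mean between genotypes. It had -0.13 ± 0.05 in SOL (adjusted p = 0.12, limma) and -0.06 ± 0.08 in TA (adjusted p = 0.682). The SOL value passed with array weights (-0.16, adjusted p = 0.0228) and without mKO ZT4 replicate A (-0.15, adjusted p = 0.0465). In SOL every mKO animal lay below every Ctrl animal at ZT16 and ZT20, as 4.88% and 7.59% of all genes did. In SOL its medians were 10.7 in Ctrl and 10.6 in mKO, and in TA 10.8 and 10.9. In TA the effect took the opposite sign within the animals of BM2 and BM2* (0.67, adjusted p = 0.0452), which meet both genotypes only at ZT8, with 1 animal each, and at ZT12, with 3 each.

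Fbxo32 was rhythmic in both muscles and both genotypes. The amplitudes were 0.33 in SOL of Ctrl (adjusted p = 5.17e-05, limma), 0.48 in SOL of mKO (adjusted p = 8.74e-08), 0.46 in TA of Ctrl (adjusted p = 0.00087) and 0.62 in TA of mKO (adjusted p = 2.14e-05). In Ctrl the peaks lay at ZT8.0 in SOL and at ZT3.7 in TA, and the rhythms of the muscles differed (adjusted p = 0.00307, where 0.524% of all genes did). In SOL of Ctrl the 3 animals had 10.30, 10.46 and 10.41 at ZT0 and 10.92, 10.84 and 11.03 at ZT8. In TA of Ctrl the same animals had 11.39, 10.96 and 10.93 at ZT0 and 10.78, 11.23 and 10.76 at ZT8. So in SOL every animal of ZT8 lay above every animal of ZT0, and in TA the times overlapped. This pair of times serves as an illustration, and the share of all genes so separated was not counted. In mKO the peaks lay at ZT7.1 in SOL and ZT6.3 in TA, and the difference between muscles did not pass (adjusted p = 0.485, where 0.38% of all genes did). Within BM3 animals the difference between muscles in Ctrl did not pass either (adjusted p = 0.473), with no animal of ZT12 among them. The difference in rhythm between genotypes had an unadjusted p of 0.0463 in SOL and 0.00402 in TA and did not pass after adjustment (0.946 and 0.739).

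Trim63 (Entrez 433766), MuRF1, a ligase that marks thick filament proteins for degradation, was higher in mKO TA at ZT8. The 3 mKO animals had 10.52, 10.54 and 10.69 and the 3 Ctrl animals 9.87, 10.09 and 9.78. The genotypes did not overlap at that time, and 5.51% of all genes had every mKO animal above every Ctrl animal. The difference was 0.67 ± 0.13 (1.59-fold, adjusted p = 0.00131, limma), where 0.884% of all genes were higher. At ZT4 Ctrl was at 10.42, 10.35 and 10.21 and mKO at 10.31, 10.13 and 9.96, and at ZT12 Ctrl was at 9.79, 9.85 and 9.97 and mKO at 10.45, 10.15 and 10.33. At ZT12 every mKO animal again lay above every Ctrl animal (6.7% of all genes), and the difference of 0.44 ± 0.13 did not pass (adjusted p = 0.0561, limma). At ZT20 every mKO animal lay below every Ctrl animal (8.55% of all genes), with -0.28 ± 0.13 (adjusted p = 0.474). Series and genotype cannot be told apart at ZT20. The group mean of mKO was higher at 3 times and lower at 3.

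Over the 6 times Trim63 had 0.14 ± 0.05 in TA (adjusted p = 0.0608, limma) and 0.14 ± 0.06 in SOL (adjusted p = 0.244). Neither passed, but the TA value passed under quantile normalisation (adjusted p = 0.0181), with array weights (0.0185), with an intensity trend (0.0445), among genes above the median level (0.0296) and when any 1 of 7 animals was left out. Within the animals of BM2 and BM2*, at ZT8 and ZT12 alone, it was 0.68 (adjusted p = 0.0089), and within BM3 animals 0.16 (adjusted p = 0.248). Trim63 was rhythmic in TA of mKO (amplitude 0.34, peak at ZT9.6, adjusted p = 0.00217), and in TA of Ctrl its amplitude was 0.11 (adjusted p = 0.725). The difference between these rhythms had an unadjusted p of 0.00015 and an adjusted p of 0.113, and it passed without mKO ZT0 replicate B or without mKO ZT12 replicate B (adjusted p down to 0.0395), among genes above the median level (0.0417) and as any difference among the 6 times (0.0491). Within BM3 animals, with no mKO of ZT12 or ZT20, the amplitude in TA of mKO was 0.36 and did not pass (adjusted p = 0.186).

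Fbxo30 (Entrez 71865), MUSA1, a ligase subunit that BMP signalling holds down, had -0.11 ± 0.04 in TA (adjusted p = 0.0688, limma) and 0.02 ± 0.04 in SOL (adjusted p = 0.912). In TA its medians were 8.31 in Ctrl and 8.26 in mKO, with ranges that overlapped. In SOL of Ctrl it was rhythmic, with an amplitude of 0.21 and a peak at ZT4.2 (adjusted p = 0.0102), a call lost within BM3 animals (0.17, adjusted p = 0.198). The group means there were highest at ZT4 (8.98) and lowest at ZT12 (8.47).

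Of 20 measured ubiquitin ligases and ubiquitin genes of muscle, 1 rose and 1 fell in SOL, and 2 rose and 3 fell in TA. Fbxo40, a ligase subunit of striated muscle, rose by 0.15 and 0.19, and Ubr2, a ligase of the N-degron pathway, fell by 0.23 and 0.25, in SOL and TA. In TA Trim55, MuRF2, rose by 0.16, Fbxo31 fell by 0.18 and Traf6 fell by 0.11.

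**Figure D3:**
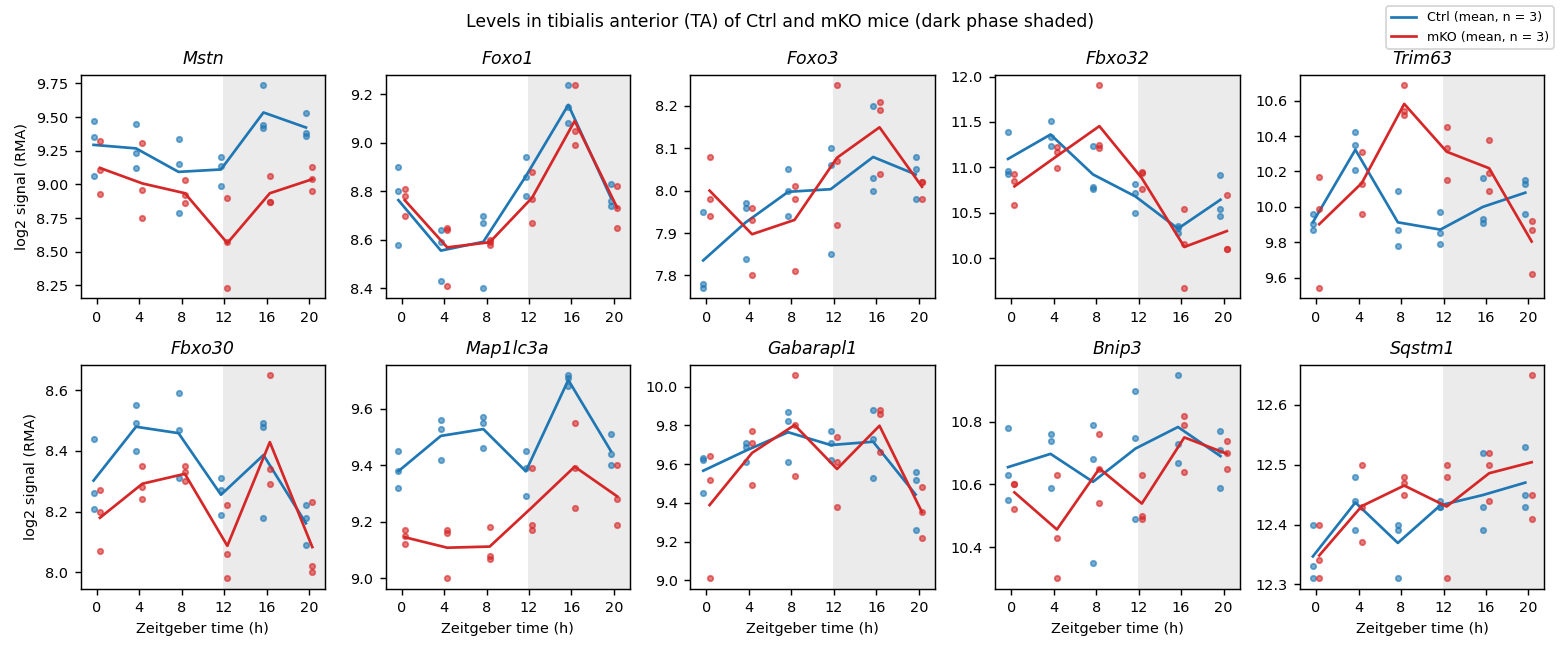
Log2 signal of each gene in TA by Zeitgeber time (h); points are animals, lines join the means of 3 animals for Ctrl (blue) and mKO (red), and the dark phase is shaded. The y axes differ between panels. Mstn and Map1lc3a of mKO lie below Ctrl at all 6 times, and Trim63 stands apart at ZT8, with a mean of 10.58 in mKO and 9.91 in Ctrl.

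Map1lc3a (Entrez 66734), LC3A, an ATG8 protein that is joined to lipid on the autophagosome, was lower in mKO in TA and not in SOL. In TA of Ctrl it ran from 9.29 to 9.72 with a median of 9.46, and in TA of mKO it reached 9.55 at most, with a median of 9.18. In SOL it ran from 9.22 to 9.82 in Ctrl and from 9.15 to 9.80 in mKO, with medians of 9.62 and 9.65. The difference was -0.27 ± 0.03 in TA (1.21-fold lower, adjusted p = 1.06e-07, limma) and 0.00 ± 0.05 in SOL (adjusted p = 0.999). The effects of the muscles differed by -0.27 ± 0.06 (adjusted p = 0.00328), where 2.71% of all genes differed and 1.52% had a negative interaction.

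In TA the Map1lc3a mean of mKO was below Ctrl at 6 of 6 times, and at 5 times every mKO animal lay below every Ctrl animal (from 3.83% to 9.19% of all genes at single times). At ZT8 Ctrl had 9.55, 9.46 and 9.57 and mKO 9.07, 9.18 and 9.08. At ZT16 Ctrl had 9.68, 9.71 and 9.72 and mKO 9.25, 9.55 and 9.39. At ZT12 the genotypes overlapped, with 9.29, 9.45 and 9.39 in Ctrl and 9.39, 9.17 and 9.19 in mKO. The difference passed at ZT4 (-0.40), ZT8 (-0.42) and ZT16 (-0.31), with adjusted p of 0.00267, 0.00116 and 0.0264 in limma, where 1.03%, 1.15% and 0.968% of all genes fell. The series at ZT16 were unlike between genotypes, as given above. At ZT20 the highest mKO animal and the lowest Ctrl animal both stood at 9.40 after rounding. Within BM3 animals the effect in TA was -0.32 (adjusted p = 0.000122) and the interaction -0.30 (adjusted p = 0.0645), and within the animals of BM2 and BM2* they were -0.31 (adjusted p = 0.197) and -0.37, which did not pass.

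The other ATG8 genes measured did not pass in either muscle. Gabarapl1 (Entrez 57436) had 0.06 ± 0.06 in SOL and -0.05 ± 0.06 in TA, Map1lc3b had -0.07 and -0.02, and Gabarap 0.02 and -0.03. Gabarapl1 was rhythmic in SOL of Ctrl, with an amplitude of 0.26 and a peak at ZT1.9 (adjusted p = 0.0138, limma). The call was lost within BM3 animals (amplitude 0.18, adjusted p = 0.507), with series as a covariate (adjusted p = 0.095) and as any difference among the 6 times (adjusted p = 0.116). Its group means there ran from 10.47 at ZT16 to 10.96 at ZT4. Bnip3 (Entrez 12176), which marks mitochondria for autophagy, had -0.10 ± 0.07 in SOL and -0.08 ± 0.04 in TA (adjusted p = 0.579 and 0.248). Its medians were 11.7 and 11.6 in SOL and 10.7 and 10.6 in TA. Sqstm1 (Entrez 18412), p62, which carries ubiquitinated cargo to the autophagosome, had 0.03 ± 0.03 in both muscles (adjusted p = 0.656 and 0.565), with medians of 12.1 in SOL and 12.4 in TA in both genotypes. Neither Bnip3 nor Sqstm1 was called rhythmic in any muscle or genotype, and the largest amplitude of the pair was 0.10.

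Of 25 measured genes of autophagy initiation and conjugation, 2 rose and none fell in SOL, and 2 rose and 2 fell in TA. Wipi1, which binds the membrane lipid of the forming autophagosome, rose by 0.13 and 0.24, in SOL and TA. Atg13, a partner of the initiating kinase, rose by 0.19 ± 0.04 in SOL and had -0.03 ± 0.05 in TA (adjusted p of the interaction 0.00857, limma). Atg10 rose by 0.18 in TA, where Atg3, the enzyme that joins ATG8 proteins to lipid, fell by 0.22 and Ulk2 fell by 0.10.

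Of 9 measured autophagy and mitophagy receptors, 1 rose and none fell in SOL, and 2 rose and 1 fell in TA. Phb2, an inner membrane protein, rose by 0.10 and 0.18, Bcl2l13 rose by 0.20 in TA and Fundc1 fell by 0.20 in TA. Of 13 lysosome genes, 1 rose in SOL, the proton pump subunit Atp6v1h (0.22), and 2 rose and 4 fell in TA. Atp6v1a (0.18) and Lamp1 (0.08) rose in TA, while the proteases Ctsl (-0.16) and Ctsb (-0.11) and the transcription factor Mitf (-0.16) were among those that fell. Mitf had 0.09 ± 0.03 in SOL, and its effects differed between muscles (adjusted p of the interaction 0.00243).

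All 10 genes differed between the muscles of the same animals in both genotypes, where 42.9% of all genes did in Ctrl and 48.2% in mKO. Mstn was far higher in TA, as given above. Gabarapl1 was lower in TA by 1.11 ± 0.06 in Ctrl and 1.21 ± 0.06 in mKO (2.15-fold and 2.32-fold, adjusted p = 9.61e-17 and 9.24e-18, limma), lower in 18 of 18 animals of each genotype. Bnip3 was lower in TA by 0.97 ± 0.06 and 0.96 ± 0.06, also in 18 of 18 animals of each. Trim63 was higher in TA by 0.57 ± 0.05 in each genotype, in 18 animals of Ctrl and 17 of mKO.

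The other 6 genes differed by less. Sqstm1 was higher in TA by 0.34 and 0.33, in Ctrl and mKO, in 18 of 18 animals of each, and Fbxo32 was higher by 0.20 and 0.27, in 12 and 17 of 18 animals. Fbxo30 was lower in TA by 0.38 and 0.50, Foxo1 by 0.21 and 0.19 and Foxo3 by 0.16 and 0.22. Map1lc3a was lower in TA by 0.12 ± 0.04 in Ctrl (adjusted p = 0.0148) and by 0.39 ± 0.04 in mKO (adjusted p = 9.49e-10), the pair whose difference is the interaction above. Within the animals of BM2 and BM2* the Ctrl difference of Fbxo32 was -0.19 (adjusted p = 0.124) and that of Map1lc3a 0.01 (adjusted p = 0.978), both of the opposite sign and neither past the test. In the same animals Foxo3 in Ctrl (adjusted p = 0.22) and Foxo1 in mKO (0.0627) kept their sign and did not pass, and with series as a covariate over all animals the Fbxo32 difference in Ctrl was 0.20 (0.0509).

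**Figure D4:**
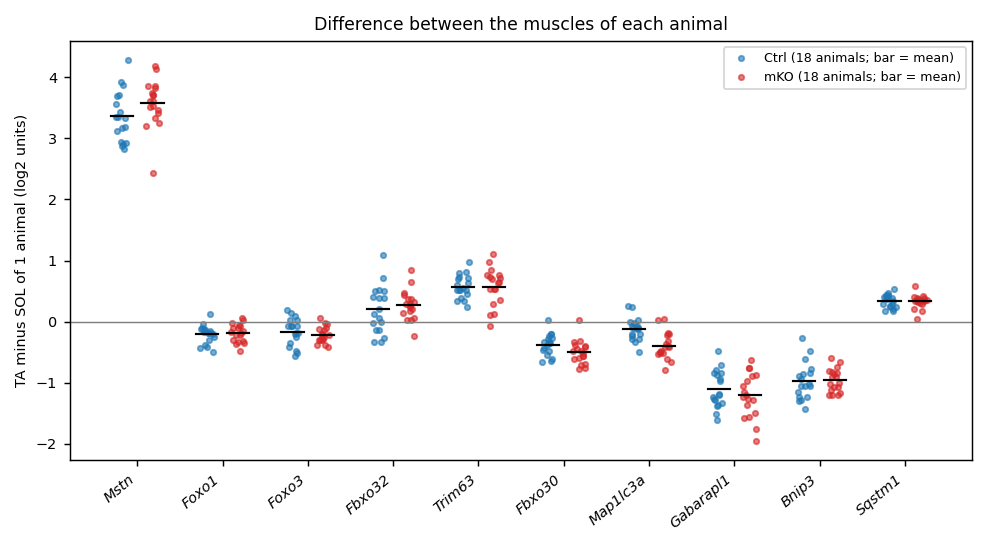
Log2 signal in TA minus that in SOL of the same animal, one point an animal (18 Ctrl in blue, 18 mKO in red; bars are means). Mstn lies between 2.43 and 4.28, every animal of Gabarapl1 and Bnip3 lies below 0, and every animal of Sqstm1 lies above 0.

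**Figure D5:**
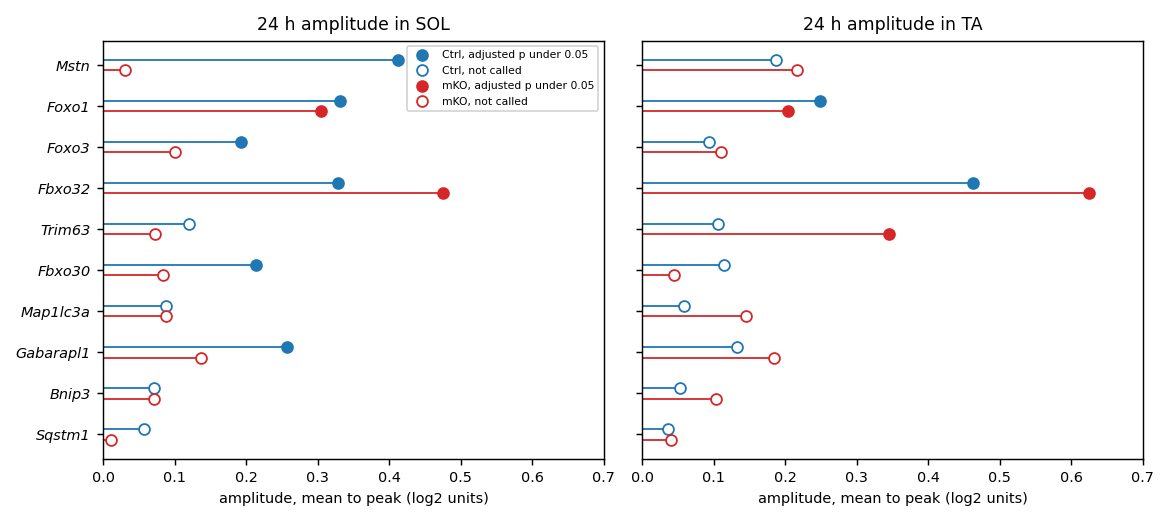
Amplitude of the fitted 24 h cosine (mean to peak, log2 units) for each gene in SOL (left) and TA (right), for Ctrl (blue) and mKO (red); filled points passed an adjusted p of 0.05 in limma. Fbxo32 and Foxo1 are filled in all 4 sets, Mstn in SOL of Ctrl alone at 0.41, and Trim63 in TA of mKO alone at 0.34.

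The genes most like each of the 10 were found by the mean of 2 Pearson correlations, over the 36 SOL arrays and over the 36 TA arrays, which share animals, genotypes and times. Fbxo32 had the closest neighbours, with Klhl38 at a mean r of 0.92 (0.92 in SOL and 0.91 in TA), Crebrf at 0.82 and Cecr2 at 0.80. Foxo1 was nearest to Noct (0.82), Dok7 (0.81) and Xdh (0.80). Mstn was nearest to Tbc1d1 (0.75), Stxbp4 (0.71) and Hivep2 (0.70). Foxo3 was nearest to Rnf31 (0.71) and Map1lc3a to Vgll2 (0.67, with 0.55 in SOL and 0.80 in TA). The first neighbours of the remaining 5 had mean r from 0.54 (Vps72 for Sqstm1) to 0.62 (Rbm39 for Fbxo30). Of the 10 genes themselves, Fbxo30 and Gabarapl1 were each among the other's 3 nearest, with r of 0.53 in SOL and 0.66 in TA.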

How the data were processed

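RNA of 72 muscles was hybridised to arrays. The authors deposited log2 signals, which their processing notes name as RMA (no version is given). A probe set carries the Entrez number of its gene. RMA puts all arrays on one distribution, which can hide a shift of most genes. Of 21225 probe sets, 20239 had 1 gene symbol, and 986 were not listed in the annotation and were not used. No values were filtered or scaled for the main tests. The number of arrays limits the precision, and no detection calls were used.

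Samples were grouped by the labels. limma 3.58.1 in R 4.3.3 (lmFit, eBayes) was fitted on all named genes, with p adjusted by Benjamini and Hochberg and a threshold of 0.05. Genotype effects were means over 6 times in the 36 arrays of a muscle, with single times from the same fit. Muscles were compared on TA minus SOL within animals, and rhythm by a cosine and a sine of 24 h. The tests of genotype, interaction, rhythm and rhythm difference between genotypes were tried on simulated data. Those of single times, of the level between muscles and of rhythm between muscles were not. SOL and TA arrays come from the same animals per the labels, and their deviations from group means had a median r of 0.046 (-0.197 to 0.352). Alternatives were quantile normalisation, a filter on dim genes, array weights, an intensity trend, the series of animals, the replicate letter as a block, other rhythm tests, and each animal left out. The test of rhythm between muscles and the fits on BM2 and BM2* animals were chosen after seeing the data.

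The genes and lists were chosen with earlier results of these data known. Named are all 10 genes, from each list up to 3 genes called in each direction and muscle with the smallest p, the 3 genes most like each of the 10, and Arntl. Within lists, the ATG8 genes and the receptors Acvr2a and Acvr2b that were not called were named after their values were seen. Markers of 9 other cell types were counted: satellite cells, smooth muscle, endothelium, Schwann cells, adipocytes, macrophages, other white blood cells, red cell precursors, and fibroblasts with tendon.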

Additional observations from a re-analysis of the deposited data

Results flagged for a closer look

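Map1lc3a was singled out because its genotype effect differed between the muscles by a test of the difference itself. The effect was -0.27 ± 0.03 in TA and 0.00 ± 0.05 in SOL, and the interaction had an adjusted p of 0.00328 in limma, from 36 within-animal differences. It held when each of the 36 animals was left out in turn (adjusted p up to 0.00755) and did not pass within BM3 animals alone (-0.30, adjusted p = 0.0645).

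Fbxo32 was singled out because its daily rhythm differed between the muscles of Ctrl animals, with an adjusted p of 0.00307 in limma. The fitted peak lay at ZT8.0 in SOL, with an amplitude of 0.33, and at ZT3.7 in TA, with an amplitude of 0.46. In mKO the same test gave an adjusted p of 0.485, and whether the difference between muscles itself differed between genotypes was not tested. The test of rhythm between muscles was chosen after seeing the data. Within BM3 animals, with none of ZT12, the Ctrl difference did not pass (adjusted p = 0.473).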

How the results depend on the processing

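Of 1360 values of single genes under the alternatives, 1316 kept their side of the threshold, 23 lost a call and 18 gained one. Another 3, called in the main fit or in the alternative, took the opposite sign. A change of sign in a value called in neither fit counts among the 1316. The cause of these changes was not tested, except that fewer animals enter the fits within a series and fewer genes the fit on brighter genes. The genotype calls of Mstn in both muscles and of Map1lc3a in TA held with each of 36 animals left out, from -0.61 to -0.53, -0.38 to -0.33 and -0.29 to -0.26. The 3 opposite signs came within the BM2 and BM2* animals, for Fbxo32 between genotypes in TA (0.67), for Fbxo32 between muscles of Ctrl (-0.19) and for Map1lc3a between muscles of Ctrl (0.0052).

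Among the 10 genes, 1 was called between genotypes in SOL, 2 with array weights, 0 within BM2 and BM2* animals, and from 1 to 2 with animals left out. In TA 2 were called, and 4 with genes above the median level only or with array weights. Calls over all genes in TA went from 3000 to 3083 among the fewer genes above the median level, and to 5388 with array weights. The interaction had 1 call, and 0 within BM3 animals or within BM2 and BM2* animals. Rhythm calls within BM3 animals went from 6 to 2 in SOL of Ctrl and from 2 to 1 in TA of Ctrl. Over all genes these calls fell as well, from 1224 to 394 and from 547 to 156. The rhythm difference between genotypes in TA had 0 calls, and 1 with genes above the median level only, 1 for any difference among the 6 times, and from 0 to 1 with animals left out. The rhythm difference between muscles had 1 call in Ctrl, 2 under quantile normalisation and 0 within BM3 animals, and in mKO 0 calls and 1 with genes above the median level only. Fbxo30 in TA was called with array weights (adjusted p = 0.0107) and Fbxo32 in SOL too (0.0228).

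Over all genes the calls between genotypes were 1436 in SOL (2126 with array weights, 538 within BM3 animals, 118 within BM2 and BM2* animals). In TA they were 3000 (5388 with array weights, 1524 and 314 within the series). The interaction had 549 calls over all genes, 167 within BM3 animals and 11 within BM2 and BM2* animals.

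Ctrl and mKO share replicate letters, but the letters mark no shared animal, and among 36 pairs of the same letter the deviations correlated at 0.153 in the median, from -0.280 to 0.322, with 21 pairs over 0.1. With the letter as a replicate block, Mstn had -0.57 in SOL (adjusted p = 5.88e-05), and no call on the 10 genes changed. Without the pairing of muscles within animals, the Map1lc3a interaction had an adjusted p of 0.00101, and no call changed. With 3 animals a group, small effects at single times were not detectable.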
